A study of Homo sapiens with 6 samples.

Results

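The 10 genes described here encode the core and accessory subunits of Polycomb repressive complex 2 (PRC2). They were taken by name, whatever their values, from 19589 features of an RNA sequencing comparison, and all 10 had a value and a test. The study compared libraries labelled HepG2, a human liver tumour line, transfected with a small interfering RNA that targets the long non-coding RNA HOTAIR (siHOTAIR) or with a negative control one (siNC). All cells received a small interfering RNA and were grown in the same high-glucose medium with serum. The sources used here do not give the dose, the time after transfection or the number of different siRNAs.

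The labels describe 6 libraries, 3 per group. The authors' deposited table gives each feature 1 mean, 1 log2 fold change and its p-value, and its means are whole-number sums over 5 libraries, 2 siNC and 3 siHOTAIR, so 1 labelled siNC library does not enter them. The reads of each library were worked back from the deposited mean, fold change and standard error, so the libraries are called siNC a and b and siHOTAIR a, b and c, letters that carry no replicate number. Size factors ran from 0.888 to 1.19. The reads of the recovered features summed to 3516381 to 4741320 per library, which is part of a library and not its depth. The labels do not tell whether each library had its own culture, so p-values reflect only how far these libraries spread, possibly for technical reasons. Each library is bulk RNA, in which fewer cells of a type and less RNA per cell cannot be told apart.

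HOTAIR itself was counted with 241 and 134 reads in siNC a and b and with 72, 73 and 53 reads in siHOTAIR a, b and c. After division by the size factors these were 202 and 150 against 62.4, 78.2 and 59.7, so every siHOTAIR library lay below both siNC libraries. For HOTAIR the log2 fold change in the authors' deposited table was -1.37 (SE 0.197, adjusted p = 5.6e-11, DESeq2), and the siHOTAIR mean was 37.9% of the siNC mean. Libraries were stranded, and whether the counting used strand is not stated in the sources used here.

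The HepG2 label did not match the hepatocyte markers. APOA1, SERPINA1, TF and FGB, plasma protein genes that this line is known to transcribe at high levels, had mean normalized counts of 0.382, 0.167, 0.335 and 0.214. HNF4A, a liver transcription factor, had a mean of 5.06. Its normalized counts were 1.67 and 6.72 in siNC and 2.6, 6.42 and 7.89 in siHOTAIR. ALB, AFP, APOB and TTR were looked up by symbol but matched no feature, so no count can be given for them. The cells are therefore called the libraries labelled HepG2 throughout, with no other cell type name. Markers of other cell types also differed between the groups. The summed normalized count of 5 of the 7 fibroblast and stellate markers was 1271 to 1277 in siNC and 2170 to 2546 in siHOTAIR. COL1A1 alone held most of that sum, with 1051 and 1078 in siNC and 1755, 1929 and 2144 in siHOTAIR. COL1A1, PDGFRB and DCN rose, while ACTA2 (log2 fold change -0.47, adjusted p = 0.248) and COL3A1 (-0.07, adjusted p = 0.904) did not pass in the authors' deposited table. For the endothelial list, 4 of 5 markers summed to 1278 to 1389 in siNC and 1925 to 1957 in siHOTAIR. ENG alone held most of that sum, with 1206 and 1315 in siNC and 1843, 1837 and 1811 in siHOTAIR. ENG and VWF rose, VWF with only 0 and 1 reads in siNC and 8, 5 and 12 in siHOTAIR. CDH5 (log2 fold change 0.47, adjusted p = 0.0675) did not pass in the authors' deposited table, and neither did PECAM1, with a mean of 4.69. Of 6 leukocyte markers, 3 summed to 184 to 204 in siNC and 127 to 154 in siHOTAIR, with a fall of CD68 and a mean of 4.05 for CD14. CD68 alone held most of that sum, with 177 and 197 in siNC and 143, 140 and 117 in siHOTAIR. LYZ, with a mean of 5.27, was higher in every siHOTAIR library. It did not pass in the authors' deposited table (log2 fold change 0.93, adjusted p = 0.197). The part of these cell type markers in the PRC2 values was not tested.

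PRC2 methylates lysine 27 of histone H3, a mark of silenced developmental genes. Its core consists of a catalytic subunit, EZH2 or EZH1, with SUZ12, the scaffold, EED, which binds the trimethylated mark and stimulates the enzyme, and RBBP4, a histone-binding protein. The core joins either a Polycomb-like protein (PHF1, MTF2 or PHF19), forming PRC2.1, or JARID2 and AEBP2, forming PRC2.2. These accessory subunits help to place the complex on CpG-rich DNA and on chromatin that carries ubiquitinated histone H2A. HOTAIR has been described as an RNA that binds PRC2, and EZH2 is often highly expressed in proliferating and tumour cells.

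Promoter sequence is shown for the 3 members that rose (PHF19, JARID2 and MTF2) and for SUZ12, a core subunit that did not pass the test, because E2F factors have been described to control transcription of core PRC2 genes. Each sequence holds the 250 bases before a RefSeq transcript start in GRCh38.p14, read 5′ to 3′ on the gene's strand, and for a gene with several starts the window with the most CG dinucleotides was taken. The windows lie at chr9:120877189-120877438, minus strand, for PHF19, at chr6:15248605-15248854, plus strand, for JARID2, at chr1:93079033-93079282, plus strand, for MTF2, and at chr17:31936757-31937006, plus strand, for SUZ12. Capitals mark a match on either strand to 1 of 4 E2F-type words, TTTCCCGC, TTTCGCGC, TTTGCCGC and TTTGGCGC.
PHF19: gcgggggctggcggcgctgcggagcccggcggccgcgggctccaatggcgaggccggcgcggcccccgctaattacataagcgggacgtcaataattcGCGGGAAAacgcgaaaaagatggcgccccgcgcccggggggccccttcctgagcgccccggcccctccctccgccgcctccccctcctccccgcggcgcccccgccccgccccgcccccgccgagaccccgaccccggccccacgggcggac
JARID2: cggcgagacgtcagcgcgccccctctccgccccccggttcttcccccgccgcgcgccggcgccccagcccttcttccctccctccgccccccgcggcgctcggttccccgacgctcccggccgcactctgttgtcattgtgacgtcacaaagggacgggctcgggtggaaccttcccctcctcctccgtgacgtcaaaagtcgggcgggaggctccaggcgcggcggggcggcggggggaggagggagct
MTF2: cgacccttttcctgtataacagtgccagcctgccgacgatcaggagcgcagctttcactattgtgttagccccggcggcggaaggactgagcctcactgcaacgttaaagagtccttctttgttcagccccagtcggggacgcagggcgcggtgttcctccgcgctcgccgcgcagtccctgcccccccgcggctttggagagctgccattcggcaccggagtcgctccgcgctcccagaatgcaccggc
SUZ12: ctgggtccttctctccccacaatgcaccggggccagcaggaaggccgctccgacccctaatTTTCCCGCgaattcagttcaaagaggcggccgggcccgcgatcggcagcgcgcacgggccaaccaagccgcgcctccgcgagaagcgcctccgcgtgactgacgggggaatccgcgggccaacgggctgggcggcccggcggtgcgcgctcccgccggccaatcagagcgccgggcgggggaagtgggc

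All 10 members had at least 1 RefSeq window, 14 windows in all. A word was found for 4 of the 10 members (PHF19, SUZ12, EZH1 and AEBP2, in 1 window each), against 3.4% of the 27305 genes in the table and 2.79% of its 35116 windows. The member windows were rich in CG, with a median of 27 CG dinucleotides per window against 11 over all windows. Each of the words contains CG, and the background was not matched for CG, so these shares do not compare like with like. The JARID2 and MTF2 windows printed above hold none of these words, with 34 and 25 CG dinucleotides. None was found either in the windows of EZH2, EED, RBBP4 and PHF1, which are not printed. PHF19 rose, while SUZ12, EZH1 and AEBP2, which also carry a word, did not pass the test. A match is a description of the sequence and no evidence of binding.

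Among the 10 subunits, 3 accessory subunits rose after siHOTAIR and none fell, at an adjusted p under 0.05 in the authors' deposited table (DESeq2). PHF19 rose 1.6-fold, JARID2 1.44-fold and MTF2 1.25-fold. None of the 5 core subunits (EZH2, EZH1, SUZ12, EED and RBBP4) passed, and neither did the accessory subunits PHF1 and AEBP2. The same rule called 40.4% of the 14597 features with an adjusted p, with 20% rising and 20.4% falling, and 55.6% of the 4483 features whose mean lay within the members' range of 295 to 1293. The 3 of 10 members called were thus a smaller share than among features of similar abundance, though with 10 genes this is a description only. The median absolute log2 fold change was 0.161 over the members, against 0.318 over all tested features and 0.271 over those in the members' range. The authors' own list of 766 up and down features holds 0 of the 10, and its members have absolute log2 fold changes of at least 1 and adjusted p-values up to 0.000976 in the authors' deposited table. Accessory against core, 3 of 5 against 0 of 5, was not tested as a difference.

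**Figure D1:**
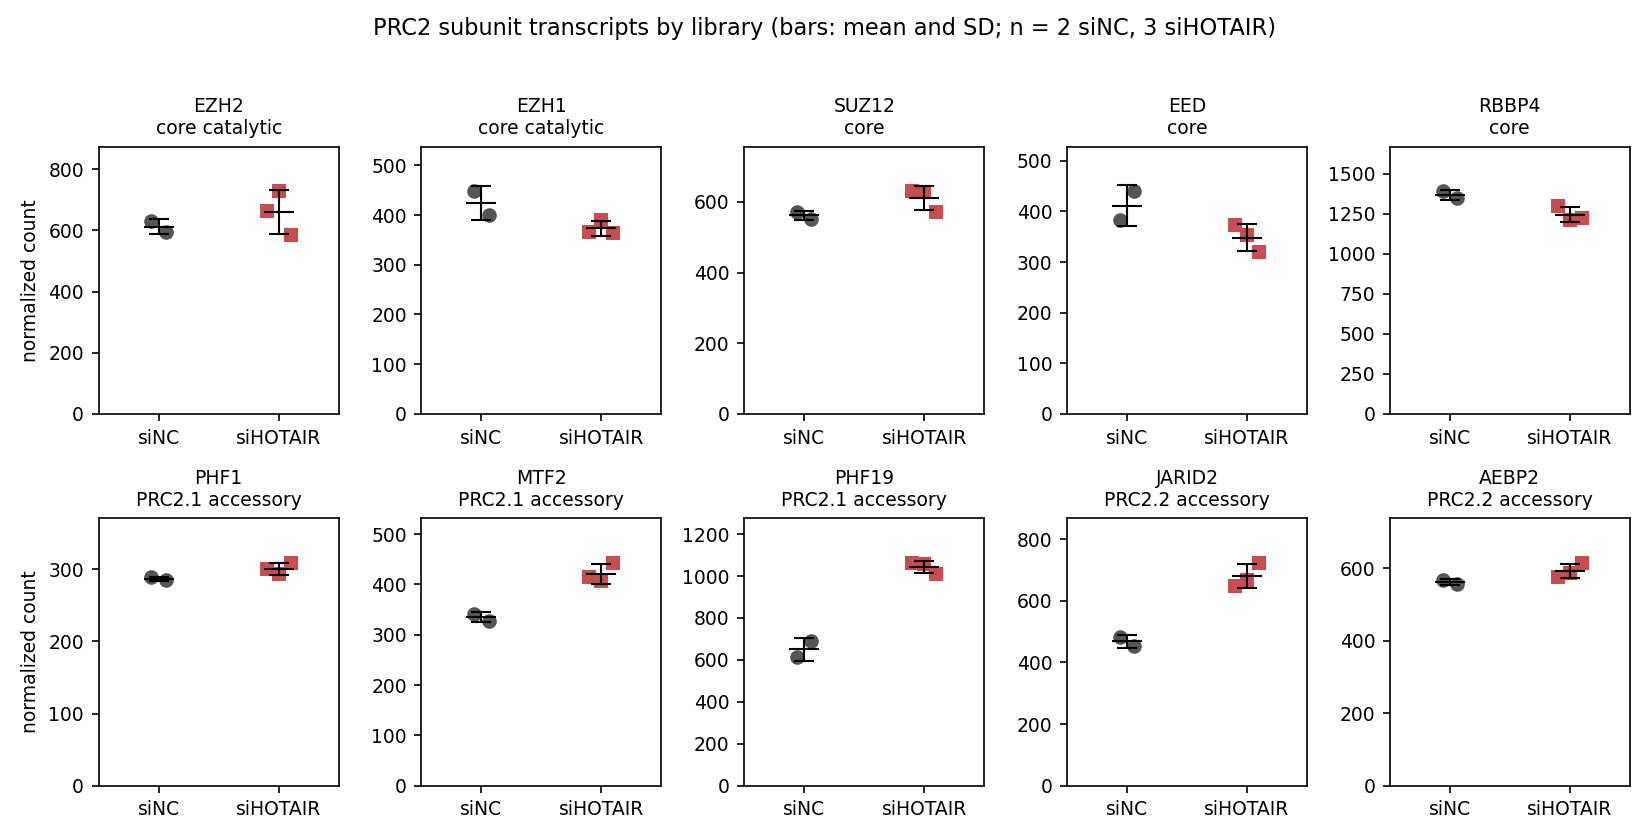
Normalized count (y axis, reads divided by the library's size factor) of each PRC2 subunit in the siNC libraries (grey circles) and siHOTAIR libraries (red squares), with the mean and SD as black bars. PHF19, JARID2 and MTF2 lie higher in every siHOTAIR library than in either siNC library by more than the spread within a group.

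Every library held between 254 and 1660 reads of each member, so counting alone gives a standard deviation of 6.3% at the lowest count and 2.5% at the highest. In 9 of the 10 members the groups did not overlap, 6 with siHOTAIR above and 3 with siHOTAIR below. The same was true of 67.0% of the 10948 recovered features with a mean of at least 20, so separation of the 5 libraries is common here. With 2 libraries against 3, separation by itself cannot give a small p-value.

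PHF19, a Polycomb-like protein that binds methylated lysine 36 of histone H3, had normalized counts of 613 and 690 in siNC a and b and 1063, 1057 and 1012 in siHOTAIR a, b and c. The siHOTAIR libraries stayed within a narrow band, and the lowest of them was well above the higher siNC library. The underlying reads were 732 and 616 against 1227, 987 and 898. PHF19 has in the authors' deposited table a log2 fold change equal to 0.68 (SE 0.0864, adjusted p = 8.01e-14).

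JARID2, the PRC2.2 subunit whose methylated form stimulates the enzyme through EED, had normalized counts of 482 and 454 in siNC and 648, 668 and 723 in siHOTAIR. Its groups were separated, with siHOTAIR c the highest library. In the authors' deposited table its log2 fold change was 0.53 (SE 0.0969, adjusted p = 4.07e-07). AEBP2, the zinc finger partner of JARID2 in PRC2.2, had 569 and 557 normalized counts in siNC and 576, 586 and 615 in siHOTAIR. These AEBP2 values nearly touch between the groups. Its log2 fold change of 0.07 had a 95% interval of -0.11 to 0.25 and, in the authors' deposited table, an adjusted p of 0.597. Limma gave AEBP2 0.07 with all libraries and 0.04 without siHOTAIR c (adjusted p = 0.719).

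MTF2, a Polycomb-like protein that binds unmethylated CpG-rich DNA, had 342 and 328 normalized counts in siNC and 414, 406 and 443 in siHOTAIR. Every siHOTAIR library exceeded both siNC libraries. The log2 fold change in the authors' deposited table was 0.32 (SE 0.11, adjusted p = 0.0105). PHF1, the third Polycomb-like protein, had 289 and 285 against 300, 293 and 309. Its groups lie side by side without overlap, and its log2 fold change of 0.07 (95% interval -0.17 to 0.30) did not pass (adjusted p = 0.71 in the authors' deposited table).

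The catalytic subunits did not pass the test. EZH2, the main enzyme of dividing cells, had 630 and 594 normalized counts in siNC and 664, 728 and 584 in siHOTAIR. It is the member whose groups overlapped, because siHOTAIR c lay below both siNC libraries and siHOTAIR b above all others. The EZH2 log2 fold change in the authors' deposited table was 0.10 (95% interval -0.10 to 0.30, adjusted p = 0.45). The EZH2 value rests on single libraries: limma gave 0.10 with all 5, 0.02 without siHOTAIR b, 0.06 without siNC b and 0.18 without siHOTAIR c (adjusted p = 0.884, 0.72 and 0.1). EZH1, the less active paralogue found in resting cells, had 448 and 400 normalized counts in siNC and 366, 391 and 363 in siHOTAIR. All siHOTAIR values lay below the siNC values, the nearest pair being 391 and 400. The EZH1 log2 fold change was -0.19 (95% interval -0.40 to 0.03, adjusted p = 0.169 in the authors' deposited table), and limma gave -0.18 with all libraries and -0.10 without siNC a (adjusted p = 0.538).

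SUZ12 had 571 and 552 normalized counts in siNC and 630, 629 and 571 in siHOTAIR. The lowest siHOTAIR library and the higher siNC library were equal when rounded to whole counts. Its log2 fold change in the authors' deposited table was 0.12 (95% interval -0.07 to 0.31, adjusted p = 0.335). SUZ12P1, a pseudogene copy of SUZ12, had a mean of 93.4 and a log2 fold change of 0.43 (adjusted p = 0.0836 in the authors' deposited table). Counting could assign reads of near-identical sequence to either gene, so the SUZ12 count is uncertain to that extent.

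EED had 383 and 440 normalized counts in siNC and 373, 353 and 319 in siHOTAIR. Its siHOTAIR values were all lower, and siNC a lay closer to siHOTAIR a than to siNC b. In the authors' deposited table the EED log2 fold change was -0.23 (SE 0.115) with an unadjusted p of 0.0451 and an adjusted p of 0.0978, the nearest to the threshold of the members that missed it. The EED call depends on the fit: limma with a mean trend on the recovered counts gave -0.24 with an adjusted p of 0.0409, where that fit called 52.8% of the 10948 features. The limma call for EED was kept without siNC a (-0.34, adjusted p = 0.0249) and without siHOTAIR a (-0.29, adjusted p = 0.0245). Without siNC b that fit gave EED -0.14 (adjusted p = 0.38), without siHOTAIR b -0.25 (adjusted p = 0.0804) and without siHOTAIR c -0.18 (adjusted p = 0.152).

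RBBP4, which is also a subunit of other chromatin complexes, had 1390 and 1345 normalized counts in siNC and 1298, 1211 and 1220 in siHOTAIR. The siHOTAIR libraries were lower by a margin similar to the spread within the group. Its log2 fold change was -0.14 (95% interval -0.28 to 0.01, adjusted p = 0.134 in the authors' deposited table). RBBP4 overlaps SYNC, a gene on the opposite strand with a mean of 73.1, and it has pseudogene copies, so its count may include or lose reads of other genes.

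**Figure D2:**
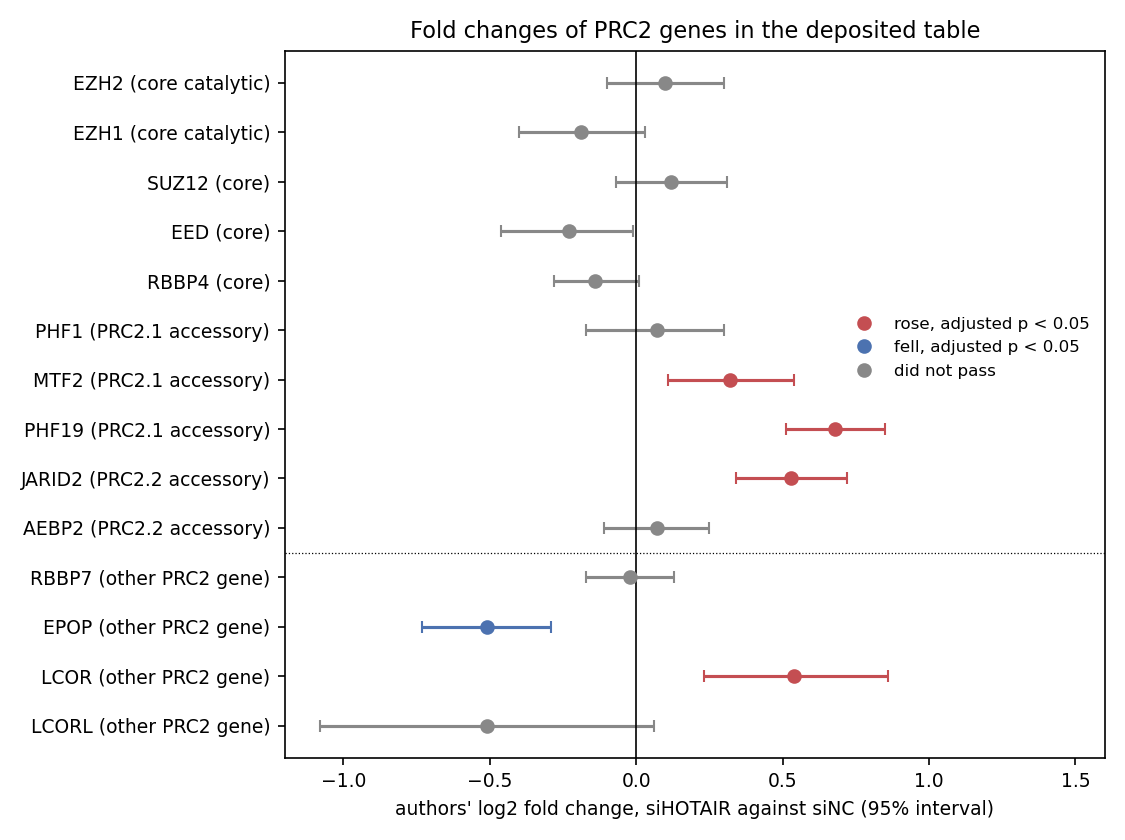
Authors' log2 fold change of siHOTAIR against siNC (x axis) with its 95% interval for the 10 subunits and for 4 other PRC2 genes below the dotted line. PHF19 (0.68), JARID2 (0.53), MTF2 (0.32) and LCOR (0.54) lie above 0 and EPOP (-0.51) below 0 at an adjusted p under 0.05.

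To compare levels between genes, normalized counts were divided by the length in kilobases of the longest coding transcript of each gene in GENCODE 29. On this per-length scale EZH2 was the highest member in siNC, at 232 ± 9.81 (SD, n = 2), followed by EED at 185 ± 18.1, RBBP4 at 172 ± 4.03 and PHF19 at 154 ± 12.9. SUZ12 (125 ± 2.93), PHF1 (123 ± 1.29) and AEBP2 (110 ± 1.73) came next, and EZH1 (91.7 ± 7.33), JARID2 (81.3 ± 3.5) and MTF2 (81.3 ± 2.42) were lowest. Neighbours in this order whose means and SDs overlapped were EED and RBBP4, SUZ12 and PHF1, EZH1 and JARID2, and JARID2 and MTF2. In siHOTAIR PHF19 stood at 246 ± 6.6 (SD, n = 3) per kilobase beside EZH2 at 249 ± 27.4, values that did not differ beyond their SDs. EED (157 ± 12.4), RBBP4 (156 ± 6.01), SUZ12 (136 ± 7.52), PHF1 (129 ± 3.31), JARID2 (118 ± 6.77), AEBP2 (116 ± 3.99) and MTF2 (102 ± 4.7) followed in siHOTAIR, and EZH1 was lowest at 80.8 ± 3.29. JARID2 and MTF2, level with each other in siNC, were 118 and 102 per kilobase in siHOTAIR, beyond their SDs. The order depends in part on the length used: divided by the union of its exons, EED had 113 in siNC and 96 in siHOTAIR. On that scale in siHOTAIR, PHF19 had 219 and EZH2 215, and AEBP2 had 101, beside MTF2 at 102 and JARID2 at 116.

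**Figure D3:**
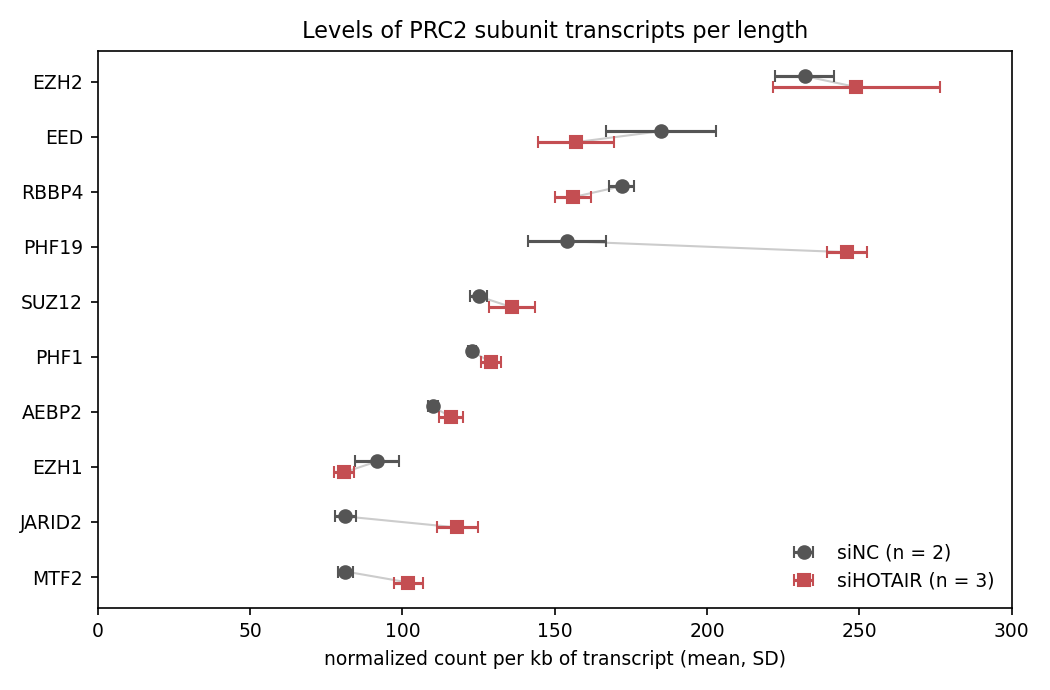
Normalized count per kilobase of transcript (x axis, mean with SD) of each PRC2 subunit in siNC (grey circles, n = 2) and siHOTAIR (red squares, n = 3), ordered by the siNC level. PHF19 moves from 154 to 246, next to EZH2 at 249 in siHOTAIR.

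Shares of the per-length level within a library do not depend on the size factors. EZH2 made up 71.1% and 72.2% of the summed EZH1 and EZH2 level in siNC a and b and 76%, 76.5% and 73.8% in siHOTAIR a, b and c. All siHOTAIR values of this catalytic share were higher, although neither gene passed the test on its own. PHF19 made up 41.1% and 44.7% of the 3 Polycomb-like genes in siNC and 52.3%, 52.6% and 49.9% in siHOTAIR. The shares of these genes sum to the whole, and PHF1 had the lower share in every siHOTAIR library, 35.3% and 33.5% in siNC against 26.8%, 26.6% and 27.7%.

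MTF2 kept a similar place among the Polycomb-like genes, with 23.6% and 21.8% in siNC and 20.9%, 20.8% and 22.4% in siHOTAIR, and its groups overlapped. JARID2 made up 42.9% and 41.9% of the JARID2 and AEBP2 level in siNC and 49.9%, 50.3% and 51% in siHOTAIR. That share was separated by several times the spread within a group. The PRC2.1 genes together held 64.3% and 66% of the 5 accessory genes' level in siNC and 68%, 67.2% and 66% in siHOTAIR, which touched at 66%. Per union exon length the same shares were separated or overlapping in the same way. Relative to SUZ12, PHF19 had 1.07 and 1.25 reads per SUZ12 read in siNC and 1.69, 1.68 and 1.77 in siHOTAIR, while EED had 0.672 and 0.797 against 0.593, 0.561 and 0.558. PHF19 was thus higher, and EED lower, in every siHOTAIR library against SUZ12 as well as against the size factors. The same held for JARID2 and MTF2, which were higher, and for EZH1 and RBBP4, which were lower. EZH2, PHF1 and AEBP2 overlapped between the groups relative to SUZ12. SUZ12 itself had a log2 fold change of 0.12, which enters every ratio. No p-value is given for these ratios, which share their reads with the values above.

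**Figure D4:**
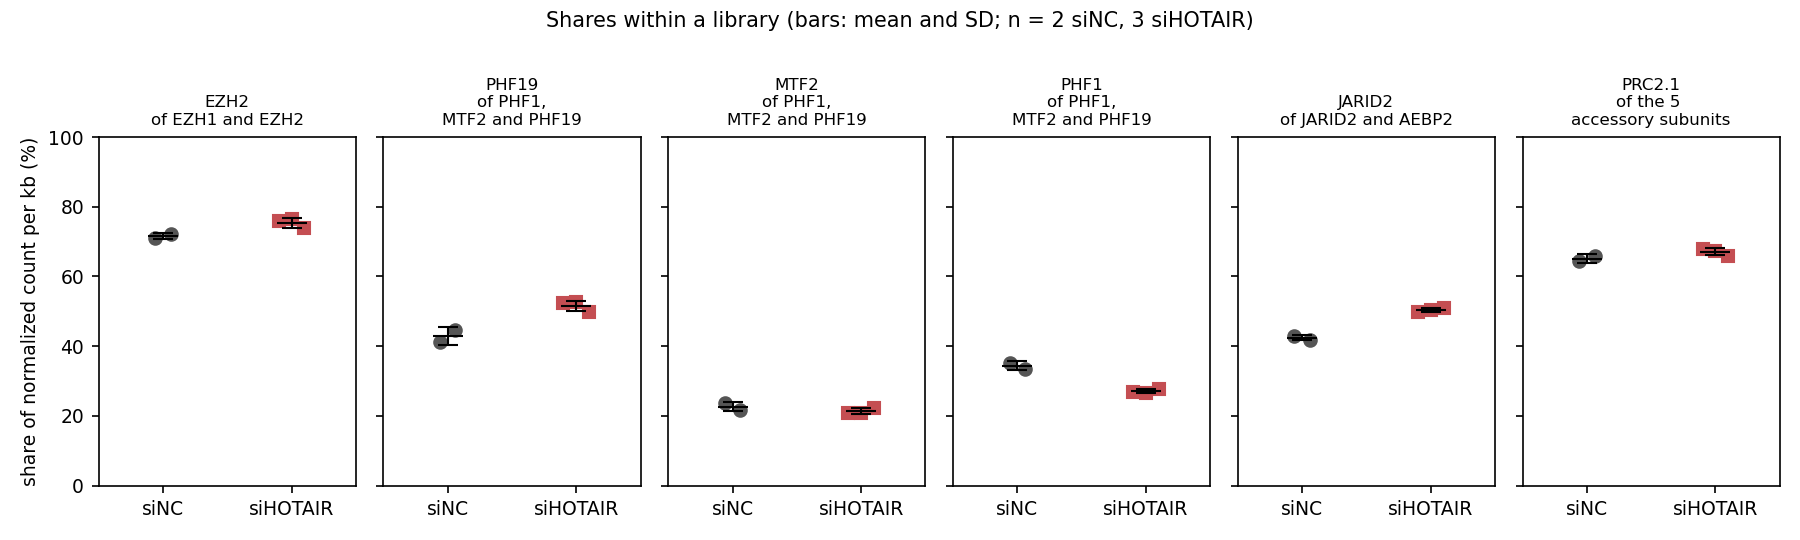
Share of the per-length level (y axis, percent) held by a gene or group of genes within each siNC (grey circles) and siHOTAIR (red squares) library, with the mean and SD as black bars. The JARID2 share is 42.4% in siNC and 50.4% in siHOTAIR, whereas the MTF2 share overlaps.

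Of 4 other PRC2 genes tested, LCOR rose, EPOP fell and LCORL and RBBP7 did not pass, beside 40.4% of all tested features called in either direction. EPOP, a PRC2.1 subunit that links the complex to elongin, had 455 and 518 normalized counts in siNC and 308, 370 and 342 in siHOTAIR. The EPOP groups did not overlap, and its log2 fold change in the authors' deposited table was -0.51 (adjusted p = 4.87e-05). LCOR, whose locus also encodes the PRC2.1 subunit PALI1, had 127 and 115 against 191, 172 and 172, with a log2 fold change of 0.54 (adjusted p = 0.00283 in the authors' deposited table). A count per gene cannot tell the LCOR and PALI1 transcripts apart. LCORL had a log2 fold change of -0.51 (adjusted p = 0.16 in the authors' deposited table), and RBBP7, the paralogue of RBBP4 and the most abundant of the 4, had -0.02 (adjusted p = 0.856).

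Of 13 E2F and RB factors, which have been described to control transcription of EZH2, EED and SUZ12, 4 rose, 2 fell and 7 did not pass. These 6 of 13 called stand beside 40.4% of all tested features, a similar share. E2F1, an activator of S-phase genes, had 414 and 418 normalized counts in siNC and 733, 739 and 765 in siHOTAIR (log2 fold change 0.84, adjusted p = 2.32e-17 in the authors' deposited table). TFDP1, the dimer partner of E2F proteins, had 1527 and 1544 against 2312, 2090 and 2138. RB1, the retinoblastoma protein gene that restrains E2F, had 611 and 577 against 404, 376 and 345 (log2 fold change -0.66, adjusted p = 3.86e-09 in the authors' deposited table). E2F1, TFDP1 and RB1 passed in the authors' deposited table, and EZH2, EED and SUZ12 did not. By overlap of libraries, E2F1, TFDP1, RB1, EED and SUZ12 were all separated between the groups, and EZH2 was not. A link between these factors and the PRC2 genes was not tested. The other called genes of this list were named after their values were seen. RBL1, of the RB family (log2 fold change 0.50, adjusted p = 0.00102), and E2F7 (0.43, adjusted p = 0.00122) rose in the authors' deposited table. E2F4 fell there (-0.30, adjusted p = 0.00372).

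Of 7 tested genes for enzymes that act against Polycomb marks and their partners, 3 rose, 1 fell and 3 did not pass. This stands beside 40.4% of all tested features called in either direction and 55.6% of features in the PRC2 members' range of means. The means of the 7 genes ran from 214 to 1479, wider than that range. ASXL2, a cofactor of the histone H2A deubiquitinase BAP1, had 410 and 392 normalized counts in siNC and 212, 238 and 234 in siHOTAIR (log2 fold change -0.81, adjusted p = 2.27e-10 in the authors' deposited table). BAP1 itself had 884 and 959 against 1156, 1251 and 1259, and FOXK2, a DNA-binding partner, had 930 and 902 against 1138, 1160 and 1216. The lysine 27 demethylase genes KDM6A and KDM6B are among those that did not pass. Of 24 genes of PRC1, the complex that ubiquitinates histone H2A, 9 rose, 2 fell and 13 did not pass. These 11 of 24 stand beside 40.4% called over all tested features, with 20% rising and 20.4% falling. The balance of rising and falling PRC1 genes was not tested. The smallest p-values belonged to CBX2 (log2 fold change 0.96), CBX6 (0.83) and KDM2B (0.66), all of which rose in the authors' deposited table. The 2 that fell, named after their values were seen, were CBX7 (2-fold lower, adjusted p = 5.23e-06) and BCOR (log2 fold change -0.41). PRC1 had a median log2 fold change of 0.11, beside 0.09 for the 10 PRC2 members and 0.01 for all tested features.

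Of 25 genes that have been described as silenced through HOTAIR or EZH2, 24 matched a feature and 18 had an adjusted p. Means of the 24 ran from 0.214 to 1691, and some genes that did not pass had few reads. Of the 18 tested genes, 5 rose, 1 fell and 12 did not pass, with a median log2 fold change of 0.25. CDKN1C, a cyclin-dependent kinase inhibitor, had 779 and 868 normalized counts in siNC and 2230, 2076 and 2256 in siHOTAIR (log2 fold change 1.41, adjusted p = 1.82e-69 in the authors' deposited table). RUNX3, a transcription factor, had 0 reads in siNC and 6.93, 11.8 and 14.6 normalized counts in siHOTAIR. PPP2R2B, a phosphatase subunit, had 195 and 224 against 273, 291 and 284. The 1 that fell, named after its values were seen, was HOXD11 (log2 fold change -1.51, adjusted p = 0.0244 in the authors' deposited table). HOXD11 had few reads, 12 and 10 in siNC and 3, 0 and 3 in siHOTAIR. Shares of 5 of 18 rising and 1 of 18 falling stand beside the 20% and 20.4% of all tested features.

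**Figure D5:**
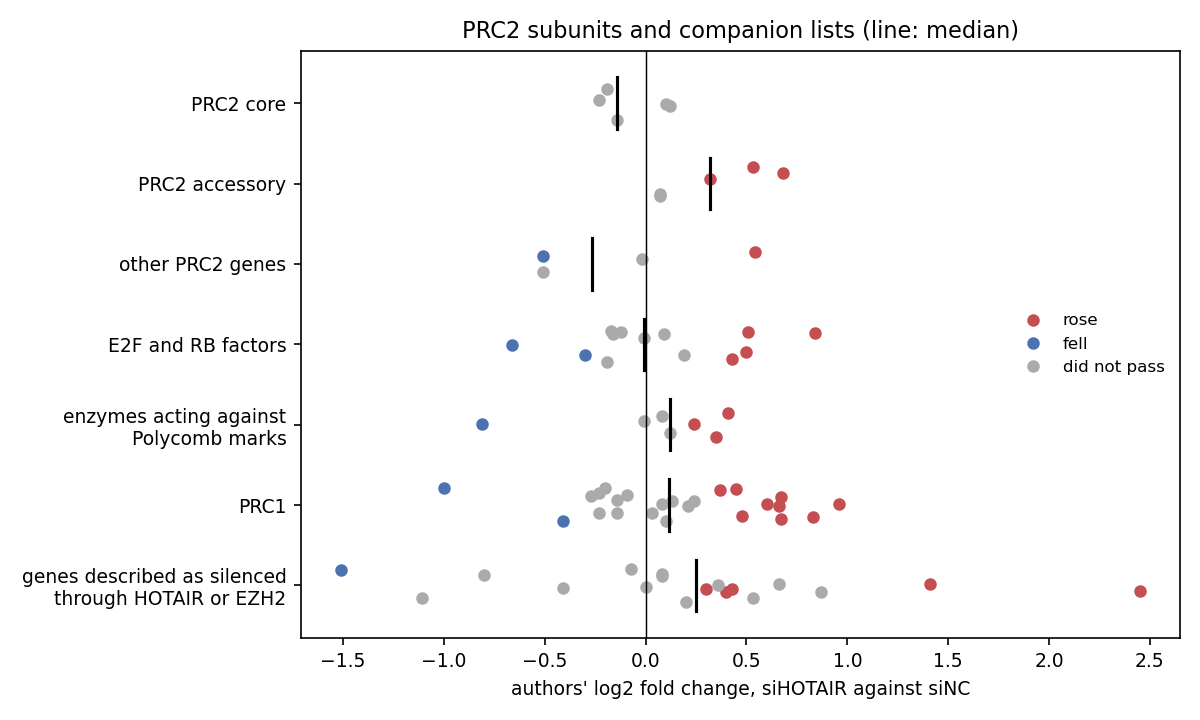
Authors' log2 fold change of siHOTAIR against siNC (x axis) for each tested gene of the PRC2 core, the accessory subunits and the companion lists, with the median as a black line and points shifted vertically to avoid overlap. The 5 core subunits lie near 0 and none passed, while 3 of 5 accessory subunits rose.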

How the data were processed

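RNA sequencing after removal of ribosomal RNA covered 6 labelled libraries, 3 siHOTAIR and 3 siNC, grouped by their titles. The authors used HTSeq 0.6.1, DESeq2, DESeq and the build hg19, per the submitters' processing notes, which give no role for each. The sources used here name no aligner, annotation or strand setting. The table holds no columns of single libraries. The authors deposited for each feature a mean signal (reads over size factors, averaged across libraries), a log2 fold change with its standard error, a score (their ratio) and p-values with and without adjustment. The second deposited table holds identical values.

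Reads per library were recovered from 5 steps in the deposited means (1 read in 1 library adds 1 step). A candidate was accepted when a negative binomial fit with a prior on the group effect gave the deposited log2 fold change within 1e-06 at the deposited standard error. This gave reads for 13651 of 18312 features searched, including 99.9% of 13006 features with a mean of 5 to 1500, and for 0 of 300 decoys with shifted means. The steps belong to siNC or siHOTAIR by the sign of the fold change of features with a single read. The recovery and the limma fits were tested on simulated data.

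The test was the authors' adjusted p under 0.05. On recovered features with a mean of at least 20, limma 3.58.1 (R 4.3.3) was fitted with a mean trend to log2 of normalized counts plus 1, and with voom to the reads, as alternatives, adjusted over those 10948 features with the Benjamini-Hochberg method. Identifiers were matched to RefSeq symbols, 19108 of 19589 by gene ID. All 10 members were named whatever their values, with HOTAIR and at most 3 genes of the smallest p per companion list. RBBP7, RBL1, E2F7, E2F4, CBX7, BCOR, KDM6A, KDM6B, HOXD11, SUZ12P1, SYNC and the markers were named beside this rule. The members and lists were chosen with earlier results of these data known. The depth of a whole library is unknown, and counting errors cover sampling of reads only.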

Additional observations from a re-analysis of the deposited data

How the results depend on the processing

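PHF19, JARID2 and MTF2 rose, and no member fell, when p-values were adjusted over all features with a p-value or over features with a mean of at least 20. At an adjusted p under 0.01, 2 members passed, since MTF2 had 0.0105. With a change of at least 1.5-fold added, 1 member passed, and with 2-fold and an adjusted p under 0.001, 0 passed. Under limma, 3 or 4 of the 10 members were called in every setting, in which 42.2% to 53.4% of the 10948 features were called, the additional one being EED, which fell with the mean trend, with a pseudocount of 0.5 and with voom but not with median-ratio factors. Leaving out 1 library at a time gave 3 to 4 members; without a siNC library, the remaining one is assumed to vary like the siHOTAIR libraries. PHF19, JARID2 and MTF2 passed in all 9 limma settings, and the adjusted p of MTF2 reached 0.0425 without siNC b. Of 90 single-gene results under these settings, 85 kept their direction and call, and 5, all of EED, gained a call. Without division by size factors, 2 members rather than 9 did not overlap, as library totals then enter the values. No paired analysis was possible because the recovered libraries carry no replicate numbers and 1 siNC library is unaccounted for. Below a mean of 5, few features could be recovered; this touches no member.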
